A study of Juglans regia with 21 samples.

Results

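The state of the walnut pellicle at 17 weeks after pollination was described by 2 sets of genes: 3908 peak genes, which were higher at 17W than at both 15W and 19W, and 4136 trough genes, which were lower at 17W than at both. They were chosen among 21707 genes tested, of 31425 in the deposited table, by an adjusted p under 0.05 with the same sign in both contrasts. The pellicle, which is the seed coat that clings to the kernel, came from the Juglans regia cultivar Xinwen179 grown in a field, with no treatment named. The stages used were 15W, 17W and 19W, with 9W, 11W and 13W as a second window, and each stage had 3 libraries of 21 in all. Nothing in the labels tells whether replicate libraries derive from separate trees, so a p-value here reflects library-to-library spread that could be technical. The labels name no hour of collection either.

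A seed coat grows with the seed it encloses, lays down phenolic compounds and a lipid barrier, and passes sugars and amino acids on to the embryo. When oxygen is short, plant cells draw energy from glycolysis and regenerate its cofactor through pyruvate decarboxylase and alcohol dehydrogenase. The circadian clock sets the transcription of a large part of a plant genome by the hour. LHY and REVEILLE factors are active in the morning and TOC1 later in the day. Heat shock proteins are made when proteins unfold. Jasmonate, a lipid-derived hormone, and the WRKY and NAC transcription factors take part in wound responses, defence and ageing.

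The 9 libraries of 15W, 17W and 19W held 13144713 reads (17W replicate 2) to 15033035 reads assigned to genes, and each had its highest correlation with a library of the same stage. Levels below are CPM, read counts scaled to a common library size after TMM adjustment, with the 3 libraries of a stage given in replicate order, and a value after ± is the SD over those 3 libraries unless marked as a standard error (SE). Where libraries are listed as left out, each was left out singly. A log2 change is 17W minus the mean of 15W and 19W on the log2 scale unless another contrast is named, and adjusted p-values are from edgeR's quasi-likelihood test with Benjamini-Hochberg adjustment over all genes tested. Peak and trough genes were called from these same libraries, so their p-values and separate groups describe them and add no support. Of 18 seed coat marker genes, the enzymes that make anthocyanidins and flavan-3-ols, 13 passed the filter on low counts and 4 had no read in the 9 libraries. The summed level of the 13 was 385 to 437 CPM at 15W, 343 to 344 CPM at 17W and 510.1 to 566 CPM at 19W, so RNA of the labelled tissue was present throughout. Storage proteins of the kernel, a tissue enclosed by the pellicle, were read too: the 8 storage genes tested summed to 8399, 11546 and 8312 CPM at 15W, then 3985, 4374 and 2582 at 17W, then 20987, 20676 and 16474 at 19W. Among 15W, 17W and 19W this sum was lowest at 17W, where its lowest library was replicate 3, and its part in the results below was not tested. The sum was lower still at 8W and 9W, with means of 221 and 910 CPM. In such bulk samples, fewer cells of a type and less RNA per cell cannot be told apart.

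Peaks and troughs were about equally common with TMM scaling, but less so with library sizes alone (4514 peaks and 3399 troughs). With TMM scaling, peak genes made up 18.0% of the genes tested and trough genes 19.1%. The counts over gene lists below are to be read against these shares. With at least a 2-fold difference from both neighbours, 1029 genes (4.74%) were peaks and 1081 (4.98%) were troughs. The 17W libraries did not overlap those of either neighbour for 3711 peak genes (17.1% of the genes tested) and 3887 trough genes (17.9%). The median log2 change over all genes tested was -0.02, and that of the peak genes was 0.85 against -0.72 for the trough genes. For 88.9% of peak genes and 93.1% of trough genes the means of 15W and 19W lay within 2-fold of each other, against 82.2% of all genes tested. A gene that changes strongly from 15W to 19W is less likely to pass the rule, so this difference follows in part from the choice of genes. Across the whole course, 17W held the highest of the 7 stage means for 2516 peak genes (64.4%) and the lowest for 2240 trough genes (54.2%). By the rule, neither 15W nor 19W could hold that place. As a description across genes, the stage means of 15W and 19W had a Spearman coefficient of 0.962, against 0.938 for 15W with 17W and 0.954 for 17W with 19W.

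**Figure D1:**
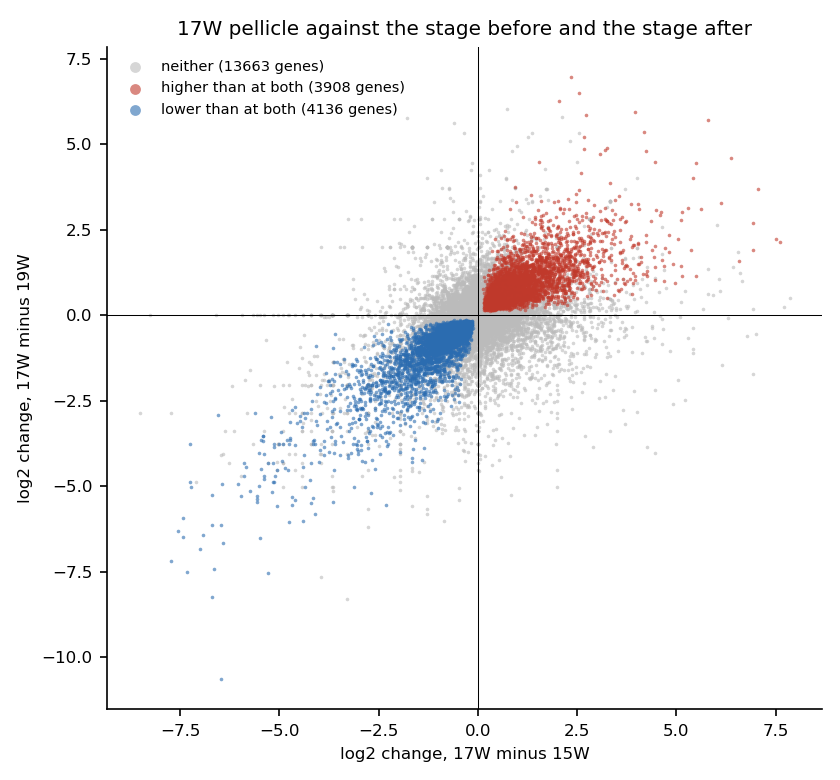
Each point is 1 gene tested, with the log2 change of 17W against 15W on one axis and against 19W on the other (edgeR). The 3908 peak genes fill the quadrant above 0 in both and the 4136 trough genes that below 0 in both.

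**Figure D2:**
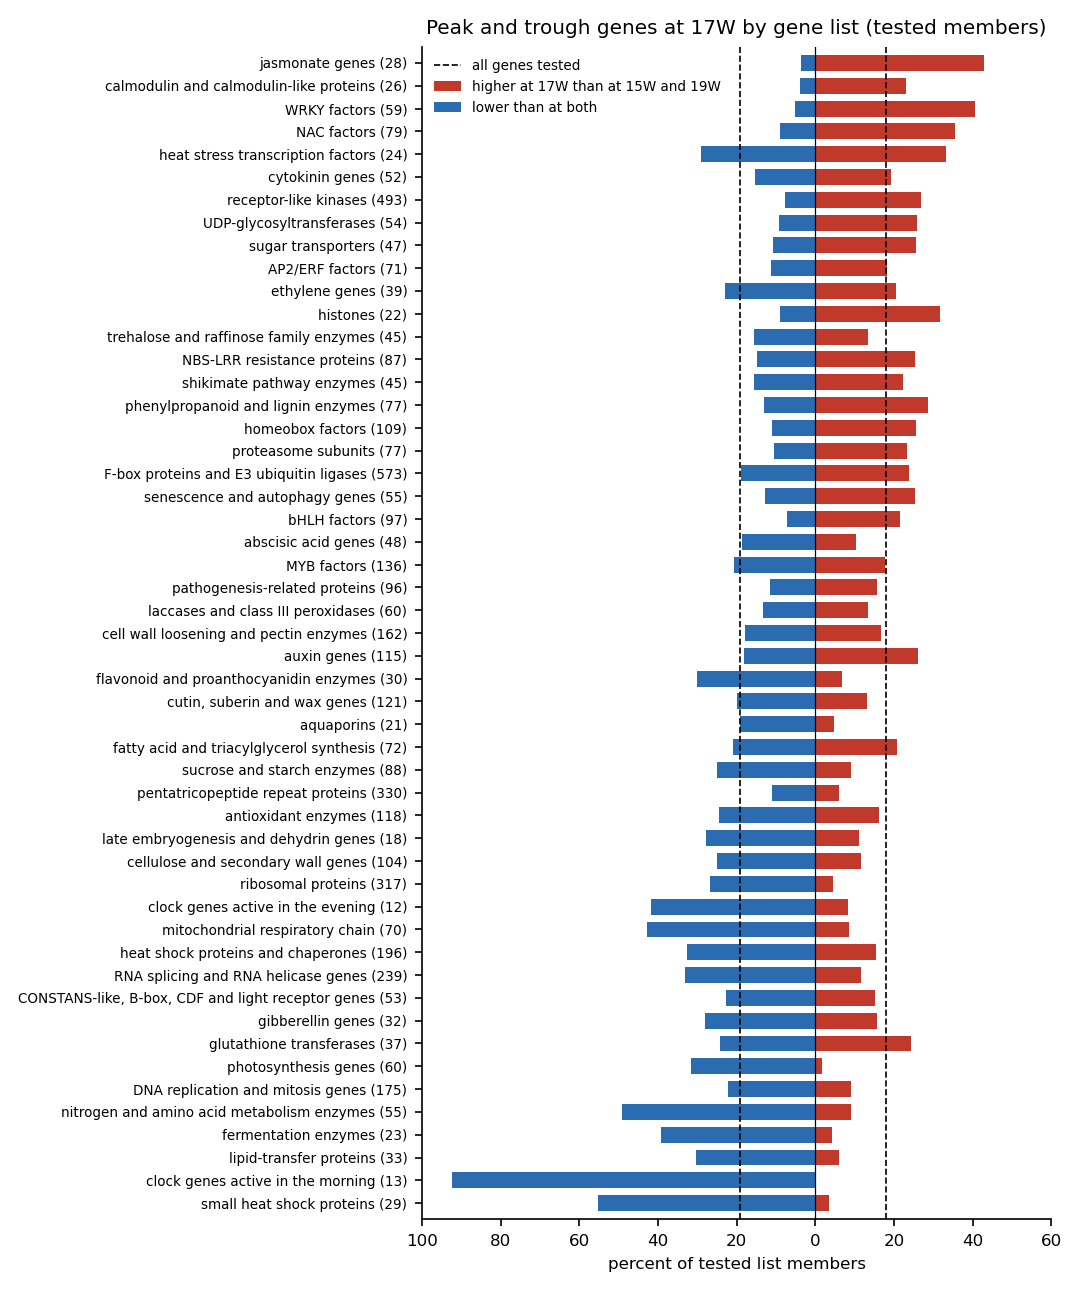
Peak and trough members of the gene lists with at least 12 members tested, as a percentage of the members tested, bars to the right being peaks and bars to the left troughs, with lists ordered by the median log2 change of 17W against the mean of 15W and 19W. The dashed lines give the 18.0% and 19.1% of all genes tested: the morning clock list has 12 troughs of 13, and the WRKY and jasmonate lists lie at the other end.

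A gene of each enzyme of ethanolic fermentation was among the deepest falls at 17W. Pyruvate decarboxylase turns pyruvate, the end product of glycolysis, into acetaldehyde, and alcohol dehydrogenase reduces that to ethanol. Of 23 tested genes whose names hold either enzyme, 9 were troughs and 1 was a peak, with a median log2 change of -0.66 against -0.02 over all genes. The list also takes in dehydrogenases of other alcohols, and it was drawn up after values had been seen. The count of peaks became 0 (without 17W replicate 3 or 19W replicates 1 and 3) and 2 (with a fit of 9 libraries), according to the setting. Its summed level was 8476 ± 264 CPM at 15W, 1295 ± 65.2 CPM at 17W and 6957 ± 508 CPM at 19W (SD, n = 3 libraries).

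Pyruvate decarboxylase Jr5DG00200000 (chromosome 5D, 32005535.0 to 32009143.0) stood at 527, 608 and 627 CPM at 15W, then 6.93, 5.62 and 7.72 at 17W, then 199, 231 and 189 at 19W. All 3 libraries of 17W lay far below the other 6. The 17W mean was lower by 87.0-fold and 30.6-fold than the 15W and 19W means, with a log2 change of -5.68 ± 0.120 (SE) and an edgeR adjusted p = 7.57e-21. Alcohol dehydrogenase Jr8DG00019400 (chromosome 8D, 2368046.0 to 2371210.0) read 2155, 2144 and 2035 CPM at 15W, then 59.9, 61.6 and 63.1 at 17W, then 1429, 1631 and 1769 at 19W. The groups were again separate, and the log2 change was -4.91 ± 0.0837 (SE) (edgeR adjusted p = 1.56e-22). Its neighbour Jr8DG00019600, annotated with the same enzyme, stood at 3959.7, 4316 and 4336 CPM at 15W, then 454, 532 and 629 at 17W, then 3249, 3815 and 3447 at 19W. It had no library of 17W within the range of either neighbour, and a log2 change of -2.83 ± 0.0954 (SE) (edgeR adjusted p = 3.64e-17).

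A glyceraldehyde 3-phosphate dehydrogenase and a sucrose synthase were lower as well, although most sucrose and starch enzymes were neither peaks nor troughs. The former, Jr3SG00113600, is annotated by the catalytic domain of that enzyme, and its name does not tell the pathway in which it acts. It stood at 4513, 4192 and 4341 CPM at 15W, then 786, 791 and 895 at 17W, then 2430.3, 2871 and 2707 at 19W. In every library 17W was below both neighbours, with a log2 change of -2.05 ± 0.0726 (SE) (edgeR adjusted p = 8.87e-17). Sucrose synthase 1 (Jr4DG00122100), which splits sucrose for use by the cell, stood at 3468, 3129 and 3201 CPM at 15W, then 742, 845 and 886 at 17W, then 2105, 2509 and 2372 at 19W. The 17W libraries were the 3 lowest of the 9, and the log2 change was -1.74 ± 0.0794 (SE) (edgeR adjusted p = 9.85e-15). Among all 88 sucrose and starch enzymes tested, 8 were higher at 17W than at both neighbours and 22 lower than at both (median log2 change -0.10), with 58 neither. A cell wall invertase, Jr5SG00010500, which splits sucrose outside the cell, went the other way, at 658 ± 25.2, 1648 ± 248 and 1171 ± 14.1 CPM at 15W, 17W and 19W (mean ± SD, n = 3 libraries), and was among the peaks. Of 47 sugar transporters, 12 were peaks and 5 troughs (25.5% and 10.6%, median log2 change 0.23). SWEET transporters let sugars pass through membranes: SWEET1 (Jr8DG00020200) was a peak, at 451 ± 61.6, 643 ± 56.4 and 340.4 ± 37.9 CPM in stage order, and a SWEET10-like gene (Jr6SG00012100) was a trough, at 359 ± 10.2, 263 ± 6.24 and 714 ± 37.5 CPM.

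**Figure D3:**
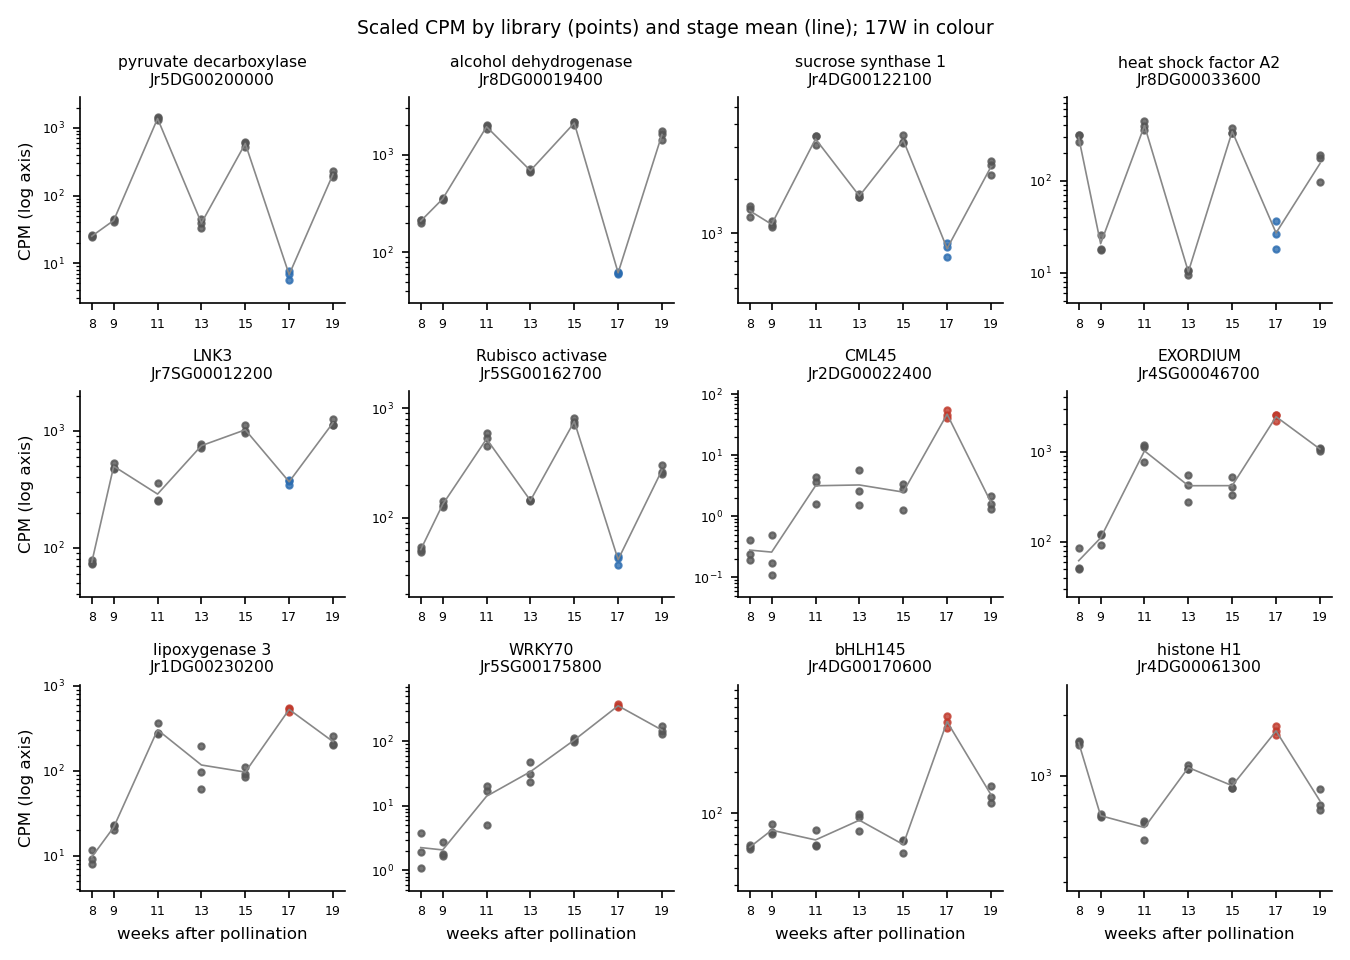
CPM on a log axis against weeks after pollination for 12 genes over the 7 stages, with 1 point per library, a line through the stage means and 17W in colour. In the panels of pyruvate decarboxylase, alcohol dehydrogenase, sucrose synthase 1, HSFA2, LNK3 and Rubisco activase the 3 points of 17W lie below those of 15W and 19W, and in the other 6 panels they lie above them.

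Small heat shock proteins, which hold unfolded proteins in solution, were mostly lower at 17W. Of 29 tested, 1 was higher at 17W than at both neighbours and 16 lower than at both (median log2 change -1.32). This list was also drawn up after values had been seen, and it lies within the wider list of 196 heat shock proteins and chaperones, of which 30 were higher at 17W than at both neighbours and 64 lower than at both (median log2 change -0.17). Small heat shock protein 17.3 Jr8DG00091100 stood at 88.9, 166 and 100.4 CPM at 15W, then 1.08, 1.95 and 3.04 at 17W, then 29.8, 51.2 and 51.0 at 19W. The 17W libraries stood apart below all others, with a log2 change of -5.13 ± 0.381 (SE) (edgeR adjusted p = 1.05e-08). The small heat shock genes with the most reads were Jr7DG00080500, at 336 ± 85.3, 95.4 ± 16.2 and 169 ± 27.4 CPM at 15W, 17W and 19W, and Jr8DG00091200, at 244 ± 57.9, 139.7 ± 48.0 and 241 ± 59.2 CPM. The latter's groups overlapped, and its call was lost without 15W replicate 2, 17W replicate 1 or 19W replicate 3 and with a fit of 9 libraries (log2 change -0.78 to -0.56). In the wider list, a dnaJ homolog (Jr7DG00042300), a co-chaperone, was lower at 343 ± 44.4, 255 ± 10.6 and 394 ± 8.02 CPM, and ClpC (Jr6SG00013900), a chloroplast chaperone of protein breakdown, was higher at 337 ± 7.89, 485 ± 27.9 and 408 ± 26.1 CPM.

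Heat stress transcription factors, which switch on heat shock genes, were divided: of 24 tested, 8 were higher at 17W than at both neighbours and 7 lower than at both (median log2 change 0.47). Heat shock transcription factor A2 (Jr8DG00033600, chromosome 8D, 4251341.0 to 4252982.0), a factor known in Arabidopsis to prolong the heat response, stood at 327, 374 and 325 CPM at 15W, then 18.2, 26.6 and 36.4 at 17W, then 95.9, 174 and 189 at 19W. Every 17W library was below every library of 15W and 19W. The log2 change was -3.07 ± 0.240 (SE) (edgeR adjusted p = 1.82e-08). Heat shock factor 4 (Jr1DG00017500) was a peak, at 75.1 ± 16.0, 235 ± 5.04 and 170.4 ± 12.1 CPM in the order of the stages, though its call was lost without 17W replicates 2 and 3 or 19W replicate 1 (log2 change 1.03 to 1.07).

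Clock genes of the morning were lower at 17W almost without exception. Of 13 LHY, REVEILLE and LNK genes tested, 12 were troughs and 0 were peaks, with a median log2 change of -1.18. LNK3 (Jr7SG00012200), a coactivator that works with REVEILLE factors, had the most reads and stood at 1122, 954 and 991 CPM at 15W, then 379, 348 and 376 at 17W, then 1127, 1133 and 1266 at 19W. Its 17W libraries were well below the others, with a log2 change of -1.58 ± 0.0928 (SE) (edgeR adjusted p = 8.71e-13). The 3 genes annotated as LHY, Jr1DG00089700, Jr1SG00053800 and Jr1SG00053700, stood at 105 ± 2.62, 56.1 ± 2.74 and 204 ± 3.13 CPM, 81.4 ± 4.10, 32.3 ± 5.65 and 152 ± 8.80 CPM and 21.7 ± 0.535, 7.34 ± 0.888 and 36.4 ± 4.44 CPM at 15W, 17W and 19W. All were troughs, with log2 changes of -1.38, -1.79 and -1.93. The LNK2 genes Jr7SG00008900 and Jr7DG00011100 and the second LNK3 gene, Jr3SG00066200, had log2 changes of -1.61, -1.18 and -2.31. REVEILLE 8 (Jr5DG00172600), REVEILLE 5 (Jr1DG00068400) and the REVEILLE 6 genes Jr3DG00241000 and Jr3SG00003200 had log2 changes of -0.68, -0.47, -0.94 and -0.44. REVEILLE 1 (Jr2DG00070000) stood at 115 ± 3.17, 79.6 ± 7.05 and 176 ± 8.14 CPM, a trough. The second REVEILLE 1 gene, Jr2SG00047100, was the exception: it was higher at 17W than at 15W by 0.21 on the log2 scale (edgeR adjusted p = 0.032) and lower than at 19W, with a log2 change of -0.31 (edgeR adjusted p = 0.00278). The call of Jr1DG00068400 was lost without 15W replicate 2 or 17W replicate 1 (log2 change -0.40 to -0.39), and that of Jr3SG00003200 was lost without 15W replicates 1 and 2, 17W replicates 1 and 2 or 19W replicates 1, 2 and 3 and with library sizes alone (log2 change -0.43 to -0.32).

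The other clock genes, a list of TOC1, PRR, GIGANTEA, ELF3 and ELF4 names that are active at different hours, moved less uniformly. Of 12 tested, 1 was higher at 17W than at both neighbours and 5 lower than at both (median log2 change -0.16). The count of peaks became 2 (without 17W replicate 3). All 5 troughs were pseudo-response regulators, repressors that follow one another through the day: the PRR9 genes Jr1SG00052800 and Jr1DG00087100 with log2 changes of -2.38 and -1.51, the PRR5 genes Jr3SG00045800 and Jr3DG00192400 with -2.06 and -1.49, and PRR7 (Jr1DG00283200) with -0.58. The peak was EARLY FLOWERING 3 (Jr8DG00039900), a member of the evening complex, at 134 ± 6.74, 158 ± 7.12 and 123 ± 9.14 CPM at 15W, 17W and 19W. TOC1 (Jr6DG00046500) stood at 70.6 ± 2.98, 55.2 ± 5.33 and 37.7 ± 4.12 CPM, and the GIGANTEA genes Jr8DG00011600 and Jr8SG00007700 at 522 ± 30.8, 409.9 ± 24.5 and 364 ± 30.8 CPM and 603 ± 37.0, 488 ± 8.92 and 548 ± 15.5 CPM. These 3 were neither peaks nor troughs, although Jr8SG00007700 was a trough with DESeq2 (log2 change -0.23). Also neither were 2 ELF4-LIKE 4 genes (Jr1SG00137100, Jr2SG00144300) and the low APRR9 gene Jr7DG00099200, of which Jr2SG00144300 became a peak without 17W replicate 3 (log2 change 0.76). Among 53 CONSTANS-like, B-box, CDF and light receptor genes, 8 were higher at 17W than at both neighbours and 12 lower than at both (median log2 change -0.23). CONSTANS-LIKE 4 (Jr4SG00004700) and the blue light receptor cryptochrome 1.2 (Jr4SG00045200) had the most reads, and were troughs at 258 ± 10.3, 128 ± 7.24 and 234 ± 11.7 CPM and 301 ± 19.6, 189 ± 9.33 and 275 ± 16.9 CPM. Since the labels give no time of day, stage and hour of collection cannot be told apart for these genes.

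Photosynthesis genes were lower at 17W where a call was made, with 1 exception. Of 60 tested, 1 was higher at 17W than at both neighbours and 19 lower than at both (median log2 change -0.38). The count of peaks became 0 (without 13W replicates 1, 2 and 3, 15W replicates 1 and 3, 17W replicates 1 and 2, 19W replicates 1, 2 and 3 or 9W replicates 1 and 3 and with a replicate block), 2 (without 11W replicate 1 and with a fit of 9 libraries) and 3 (with library sizes alone), according to the setting. Rubisco activase (Jr5SG00162700), which keeps the carbon-fixing enzyme active, stood at 822, 701 and 758 CPM at 15W, then 42.8, 36.5 and 44.1 at 17W, then 306, 263 and 248 at 19W. No 17W library reached the range of either neighbour, and the log2 change was -3.47 ± 0.0981 (SE) (edgeR adjusted p = 1.35e-18). A Rubisco small chain gene (Jr4DG00190300) was a trough too, at 456 ± 19.9, 167 ± 5.49 and 285 ± 24.9 CPM at 15W, 17W and 19W. The list's summed level ranged over 2444 to 2551 CPM at 15W, 1001 to 1030.1 CPM at 17W and 1843 to 1864 CPM at 19W.

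Nitrogen metabolism and respiration were lower for a larger share of their genes than over all genes tested. Of 55 enzymes of nitrogen and amino acid metabolism, 5 were higher at 17W than at both neighbours and 27 lower than at both (median log2 change -0.52), and 49.1% of the list were troughs against 19.1% of all genes. NADH-dependent glutamate synthase (Jr3SG00013200), which builds glutamate from glutamine, stood at 578 ± 74.6, 422 ± 20.2 and 865 ± 46.8 CPM. Aspartate aminotransferase 3 (Jr4SG00024200) stood at 1068 ± 58.7, 726 ± 36.3 and 876 ± 44.4 CPM, and its call was lost with library sizes alone (log2 change -0.35). Of 70 genes of the mitochondrial respiratory chain, 6 were higher at 17W than at both neighbours and 30 lower than at both (median log2 change -0.16). The beta subunit of ATP synthase (Jr3SG00018400) and the flavoprotein subunit of succinate dehydrogenase (Jr1DG00033100) were troughs, at 200.4 ± 2.13, 121 ± 7.40 and 192 ± 5.80 CPM and 231 ± 3.88, 173 ± 9.27 and 243 ± 17.7 CPM in the order of the stages.

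Ribosomal and splicing genes held more troughs than peaks, and most were neither. Of 317 ribosomal proteins, 14 were higher at 17W than at both neighbours and 85 lower than at both (median log2 change -0.16). The 218 others were neither, and troughs made up 26.8% of the list, against 19.1% of all genes tested. The count of peaks became 8 (without 17W replicate 2), 9 (without 15W replicate 1) and 25 (without 11W replicate 1), according to the setting. The count of troughs was 55 when libraries were scaled by their sizes alone, a scaling that moved the median of all genes tested to 0.03. The called ribosomal proteins with the most reads, S4 (Jr5DG00128900) and L17-2 (Jr3SG00115800), stood at 330.5 ± 9.89, 271 ± 18.1 and 321 ± 2.24 CPM and 321 ± 17.7, 226 ± 17.6 and 283 ± 14.6 CPM, and the call of the former was lost with library sizes alone (log2 change -0.20). Of 239 splicing and RNA helicase genes, 28 were higher at 17W than at both neighbours and 79 lower than at both (median log2 change -0.18), with 132 neither. Splicing factor 3A subunit 2 (Jr3DG00009800) and RNA helicase 46 (Jr2SG00026000) had the most reads among the called members and went against the list, with peaks at 175 ± 16.1, 609 ± 26.1 and 323 ± 14.0 CPM and 281 ± 8.79, 586 ± 15.0 and 422 ± 4.11 CPM. Of 175 DNA replication and mitosis genes, markers of dividing cells, 16 were peaks and 39 troughs (median log2 change -0.42). That is 9.14% and 22.3%, the share of troughs being near that of all genes tested. With at least 2-fold in both, 3 were peaks and 25 troughs, a larger share of troughs than the 4.98% of all genes tested. The called members with the most reads were again peaks: kinesin-13A (Jr1DG00165700) at 139 ± 7.29, 202 ± 11.8 and 161 ± 15.7 CPM and a kinesin-like calmodulin-binding protein (Jr4SG00171800) at 112 ± 11.0, 169.6 ± 6.21 and 114 ± 4.78 CPM, both motor proteins of microtubules.

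Histones, the proteins that package DNA, were more often peaks. Of 22 tested, 7 were peaks and 2 troughs (31.8% and 9.09%, median log2 change 0.17). The count of troughs became 1 (without 15W replicate 1). Histone H1 Jr4DG00061300, a linker histone, stood at 872, 869 and 941 CPM at 15W, then 1578, 1657 and 1751 at 17W, then 678, 858 and 721 at 19W, the 17W libraries being the 3 highest. The log2 change was 1.02 ± 0.0708 (SE) (edgeR adjusted p = 1.59e-11). A second histone H1, Jr2SG00185200, was a peak as well, at 927 ± 74.0, 1538 ± 88.9 and 707 ± 50.4 CPM at 15W, 17W and 19W.

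Without a fold limit, genes of surface lipids and of lipid synthesis were peaks or troughs at shares near those of all genes tested. Of 121 cutin, suberin and wax genes, 16 were higher at 17W than at both neighbours and 24 lower than at both (median log2 change -0.07). That is 13.2% peaks and 19.8% troughs, against 18.0% and 19.1% of all genes tested. With at least 2-fold in both, 9 were peaks and 16 troughs, larger shares than the 4.74% and 4.98% of all genes tested. The members with the most reads were both lower: a GDSL lipase (Jr1DG00225300), of a family that includes cutin synthases, at 1906 ± 113, 479.9 ± 27.1 and 1155 ± 90.1 CPM, and long-chain acyl-CoA synthetase 2 (Jr3SG00147100), which activates fatty acids for cutin, at 926 ± 68.7, 288 ± 16.2 and 998 ± 92.1 CPM. Of 72 genes of fatty acid and triacylglycerol synthesis, 15 were higher at 17W than at both neighbours and 15 lower than at both (median log2 change -0.09), each 20.8% of the list. The stearoyl-ACP desaturase Jr1DG00212000 and the omega-3 desaturase Jr7DG00071700, which put double bonds into oil, were lower at 639 ± 25.9, 204 ± 1.81 and 416 ± 12.7 CPM and 579 ± 74.1, 202 ± 54.8 and 776 ± 35.4 CPM. Of 33 lipid-transfer proteins, 2 were higher at 17W than at both neighbours and 10 lower than at both (median log2 change -0.93), but their summed level was 1547, 1531 and 1649 CPM at 15W, then 2463, 2887 and 1823 at 17W, then 8727, 9216 and 8289 at 19W, lowest at 15W. A single member, Jr5DG00207800, held 57.1% of the sum at 17W and was neither peak nor trough, at 388 ± 42.0, 1364 ± 438 and 6752 ± 428 CPM in stage order. The called members with the most reads were troughs, Jr3SG00156800 at 571 ± 25.7, 279 ± 8.12 and 478 ± 25.7 CPM and Jr3DG00097600 at 185 ± 11.7, 133 ± 31.5 and 292 ± 15.7 CPM, and the call of the latter was lost without 15W replicates 1, 2 and 3 or 17W replicate 3 and with no filter (log2 change -0.82 to -0.62).

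Flavonoid enzymes, whose products include condensed tannins, held more troughs than peaks, and most were neither. Of 30 tested, 2 were higher at 17W than at both neighbours and 9 lower than at both (median log2 change -0.06), and 19 were neither. Their summed level was 793 to 1031 CPM at 15W, 929.9 to 985 at 17W and 1691 to 1979 at 19W, so that the sums of 15W and 17W overlapped. The member with the most reads, a flavonoid 3'-monooxygenase (Jr6DG00050300), was neither and stood at 145 ± 22.8, 366 ± 35.2 and 524 ± 42.6 CPM in stage order. Chalcone synthase (Jr1DG00116500), the entry to the pathway, stood at 111, 174 and 169.5 CPM at 15W, then 50.7, 46.5 and 67.5 at 17W, then 322, 258 and 273 at 19W. Anthocyanidin reductase (Jr5DG00075400), which makes the building blocks of condensed tannins, stood at 73.9, 102 and 94.0 CPM at 15W, then 30.2, 30.1 and 29.4 at 17W, then 175, 133 and 130.2 at 19W. Neither gene had a 17W library within the range of a neighbour, and the log2 changes were -1.92 ± 0.199 (SE) (edgeR adjusted p = 4.56e-07) and -1.94 ± 0.120 (SE) (edgeR adjusted p = 3.11e-11). Among the 13 seed coat markers alone, 1 was higher at 17W than at both neighbours and 3 lower than at both (median log2 change -0.04). Their troughs included anthocyanidin synthase Jr6DG00150000, at 33.8 ± 9.63, 16.5 ± 3.59 and 49.8 ± 6.88 CPM at 15W, 17W and 19W, and the leucoanthocyanidin reductase-like gene Jr8SG00081600, at 1.29 ± 0.731, 0.193 ± 0.215 and 2.04 ± 0.582 CPM. The log2 change of Jr8SG00081600 was -2.95, and -4.22 without 17W replicate 3. The peak was another leucoanthocyanidin reductase, Jr8SG00002900, at 9.24 ± 1.14, 17.2 ± 0.305 and 11.7 ± 0.489 CPM. The dihydroflavonol reductases Jr8DG00061900 and Jr2SG00003800 were neither, at 133 ± 6.37, 122 ± 8.06 and 120.2 ± 4.25 CPM and 59.0 ± 3.48, 52.2 ± 2.23 and 49.0 ± 6.71 CPM.

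Enzymes of the branch from phenylalanine to lignin and phenolic acids held more peaks than troughs. Of 77 phenylpropanoid and lignin enzymes, 22 were higher at 17W than at both neighbours and 10 lower than at both (median log2 change 0.13), and peaks made up 28.6% of the list, against 18.0% of all genes tested. The count of troughs became 6 (without 15W replicate 2). Cinnamyl alcohol dehydrogenase 1 (Jr3DG00011500), which makes lignin monomers, was a peak at 60.2 ± 6.53, 161 ± 3.71 and 121 ± 17.5 CPM, and a hydroxycinnamoyl transferase (Jr1DG00263900) a trough at 269 ± 4.24, 100.1 ± 11.5 and 233 ± 8.19 CPM. Of 54 UDP-glycosyltransferases, which attach sugars to phenolics and hormones, 14 were peaks and 5 troughs (25.9% and 9.26%, median log2 change 0.28). The count of troughs became 3 (without 15W replicates 1, 2 and 3, 17W replicate 1 or 19W replicates 2 and 3). The called members with the most reads were 73B4-like (Jr6DG00110700), a peak at 102 ± 4.15, 231 ± 12.2 and 155 ± 19.5 CPM, and 84B1 (Jr3DG00011700), a trough at 197 ± 14.6, 67.5 ± 24.2 and 228 ± 36.0 CPM.

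Markers of the kernel were lower at 17W for storage proteins and uneven for the rest. Of the 8 storage genes tested, 5 were troughs and 1 was a peak (median log2 change -1.63), and 3 of 11 had no read in the 9 libraries. The vicilin-like gene Jr1DG00211500 stood at 3982, 4343 and 4061 CPM at 15W, then 1935, 2292 and 1169 at 17W, then 12049.7, 11143 and 9058 at 19W. The 17W libraries were the 3 lowest and replicate 3 the lowest of them, with a log2 change of -1.89 ± 0.340 (SE) (edgeR adjusted p = 0.000185). The other troughs were legumin B (Jr1DG00199500), at 2101 ± 727, 507 ± 97.7 and 2667 ± 383 CPM at 15W, 17W and 19W, the 11S legumin Jr2DG00249900 at 1019.6 ± 279.9, 249 ± 52.5 and 1761 ± 255 CPM, the 11S globulin Jr2SG00188600 at 964 ± 492, 220.2 ± 18.7 and 1482 ± 331 CPM and the storage protein Jr2DG00249800 at 1079 ± 170.0, 620.5 ± 173 and 2357 ± 293 CPM. The call of Jr2SG00188600 was lost without 15W replicate 2 (log2 change -2.17). The call of Jr2DG00249800 was lost without 15W replicates 1, 2 and 3, 17W replicates 1 and 3, 19W replicates 2 and 3 or 9W replicate 2 and with DESeq2, no filter or a replicate block (log2 change -1.42 to -1.15). The count of troughs became 3 (without 15W replicate 2). The peak was glutelin type-A 1 (Jr3DG00195100), at 63.3 ± 2.61, 95.0 ± 3.50 and 65.0 ± 2.64 CPM, while glutelin type-A 3 (Jr3SG00152400) and the vicilin-like Jr7SG00083500 were neither, with their highest means at 19W, at 2.50 ± 0.183, 37.1 ± 11.8 and 77.9 ± 8.38 CPM and 60.6 ± 10.1, 120.2 ± 31.8 and 219 ± 28.9 CPM.

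Oil body and late embryogenesis genes varied in another way. Of 8 oil body genes, 1 was higher at 17W than at both neighbours and 1 lower than at both (median log2 change -0.67), and their summed level was 1159, 1099.8 and 1113 CPM at 15W, then 1347, 1432 and 801 at 17W, then 2184, 2139 and 2073 at 19W. The trough was an oleosin, a coat protein of oil droplets (Jr2DG00039300), at 282 ± 10.8, 156 ± 49.6 and 323 ± 21.2 CPM, and its call was lost without 15W replicates 1, 2 and 3, 17W replicates 1 and 3 or 19W replicates 2 and 3 and with no filter or a replicate block (log2 change -1.02 to -0.71). The peak was peroxygenase 4 (Jr3DG00180900), at 38.0 ± 3.74, 51.9 ± 5.19 and 33.4 ± 7.34 CPM. Another oleosin, Jr4SG00041800, was neither, at 375 ± 21.9, 534 ± 162 and 576 ± 15.8 CPM. Of 18 late embryogenesis and dehydrin genes, which protect cells as they dry, 2 were higher at 17W than at both neighbours and 5 lower than at both (median log2 change -0.16), and their sum was 3659.5, 3884 and 3476 CPM at 15W, then 5341, 5426 and 5009.7 at 17W, then 5918, 5611 and 5549 at 19W. The 17W sum lay between those of its neighbours in every library. The count of peaks became 1 (without 13W replicate 1, 15W replicate 1 or 17W replicates 1 and 2) and 4 (without 11W replicate 3), according to the setting. The count of troughs became 1 (without 17W replicate 1), 2 (without 15W replicates 2 and 3) and 3 (without 15W replicate 1, 17W replicates 2 and 3 or 19W replicates 2 and 3 and with DESeq2), according to the setting. The troughs with the most reads were the LEA protein Jr4SG00137400, at 249 ± 12.3, 177 ± 11.9 and 277 ± 23.6 CPM, and Jr4SG00167600, at 51.9 ± 3.83, 43.0 ± 5.88 and 63.3 ± 1.07 CPM. The call of the former was lost without 15W replicate 2 or 17W replicate 1 (log2 change -0.53 to -0.50), and that of the latter was lost without 15W replicates 1 and 2, 17W replicates 1 and 3, 19W replicates 2 and 3 or 9W replicates 2 and 3 and with DESeq2, RLE factors, library sizes alone or no filter (log2 change -0.42 to -0.32). Dehydrin ERD14 (Jr4DG00147900) and dehydrin 2 (Jr4SG00068600) were neither, at 2156 ± 129, 2396 ± 45.8 and 1751 ± 37.4 CPM and 701 ± 58.1, 1515 ± 64.0 and 1269.7 ± 163 CPM. The former became a peak without 11W replicates 1 and 3 and with DESeq2 (log2 change 0.31 to 0.32), and the latter without 11W replicate 3, 13W replicates 2 and 3, 15W replicate 2 or 19W replicate 1 and with a fit of 9 libraries, library sizes alone or upper-quartile factors (log2 change 0.68 to 0.75).

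**Figure D4:**
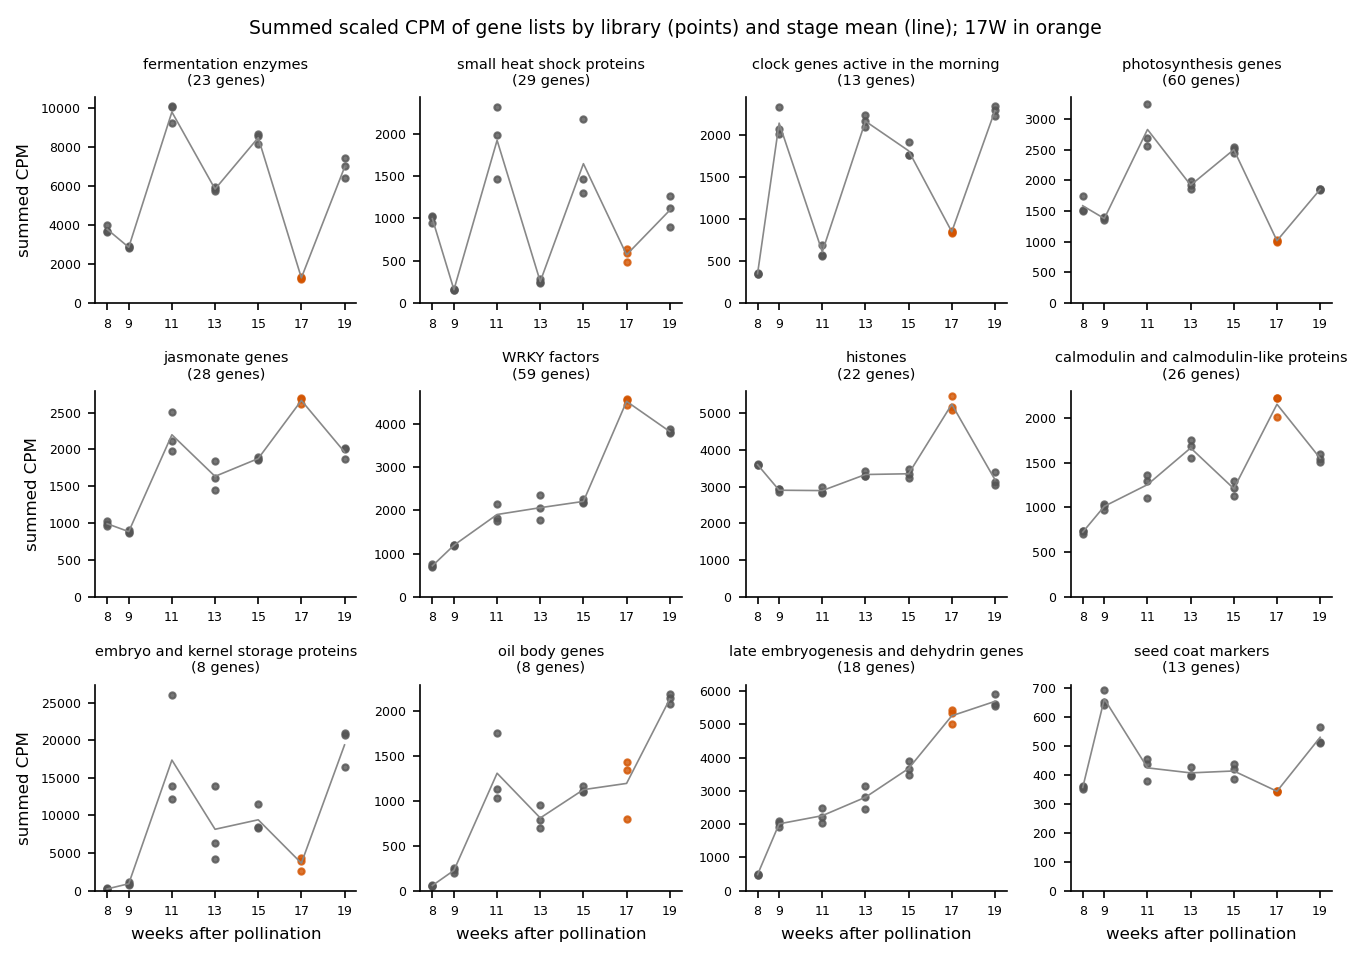
Summed CPM of the tested members of 12 gene lists against weeks after pollination over the 7 stages, with every axis starting at 0, 1 point per library, a line through the stage means and 17W in orange. The fermentation, morning clock and storage sums at 17W lie below those of 15W and 19W, the WRKY and jasmonate sums above them, and the late embryogenesis sum between them.

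Troughs were ranked by the smaller of their folds below 15W and 19W, among genes with a product name, at least 10 CPM at both neighbours and no overlap between libraries, and the first 10 held genes of varied function beside those above. A cysteine desulfurase of the chloroplast (Jr2DG00113000) had means of 11.1 ± 3.87, 0.107 ± 0.125 and 18.6 ± 2.43 CPM at 15W, 17W and 19W, with a log2 change of -7.03, which changed to -8.31 when 17W replicate 2 was left out and to -6.43 when 17W replicate 3 was. Jr8DG00143200, annotated as a protein with PHD and RING finger domains, read 125, 109 and 131, then 1.85, 2.28 and 1.49, then 54.3, 57.1 and 59.9 CPM. Early nodulin-93 (Jr2SG00172800) and a kelch repeat protein (Jr2DG00046800) stood at 122 ± 14.6, 7.69 ± 0.276 and 151 ± 11.3 CPM and 419 ± 11.4, 20.0 ± 5.21 and 338 ± 16.9 CPM in stage order. Jr4SG00073200, Jr4DG00127000 and Jr2DG00127100, annotated as a Golgi organization homolog, an adenine nucleotide hydrolase-like protein and a nitrate regulatory protein, had log2 changes of -5.21, -4.60 and -4.65. Among the troughs with the most reads, metallothionein type 3 (Jr6SG00120300), a metal-binding protein, stood at 6551, 6416 and 6529 CPM at 15W, then 1662, 1592 and 1942 at 17W, then 7953, 7368 and 7932 at 19W. Its 17W libraries were the 3 lowest of the 9, with a log2 change of -2.03 ± 0.0956 (SE) (edgeR adjusted p = 1.79e-14). The transporter-like WAT1-related gene Jr4SG00151300 stood at 3581 ± 168, 1075 ± 99.6 and 2575 ± 158 CPM in stage order.

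Peaks were also ranked by the smaller of their folds over 15W and 19W, among genes with a product name, at least 10 CPM at 17W and no overlap between libraries. The first 10 in that order had means of 0.537 to 5.55 CPM at 15W and 0.346 to 17.4 CPM at 19W. Glucose-6-phosphate/phosphate translocator 2 (Jr5DG00081300), which imports sugar phosphate into plastids, stood at 0.688, 0.638 and 1.04 CPM at 15W, then 12.5, 15.6 and 15.2 at 17W, then 0.574, 0.234 and 0.231 at 19W. The 17W libraries were far above the rest, 18.3-fold and 41.6-fold over the 15W and 19W means, with a log2 change of 4.77 ± 0.243 (SE) (edgeR adjusted p = 7.13e-14). The calcium-binding protein CML45 (Jr2DG00022400) read 2.83, 3.40 and 1.26 CPM at 15W, then 55.3, 46.5 and 40.4 at 17W, then 2.13, 1.33 and 1.62 at 19W. As the ranking required, its 17W libraries did not overlap the others, and the log2 change was 4.52 ± 0.302 (SE) (edgeR adjusted p = 3.14e-10). Phospholipase D zeta 1 (Jr4DG00026900), which cleaves membrane lipids, stood at 0.746 ± 0.351, 29.5 ± 1.06 and 3.33 ± 0.745 CPM at 15W, 17W and 19W. An external NAD(P)H dehydrogenase of mitochondria (Jr5DG00143500) stood at 0.537 ± 0.164, 19.5 ± 0.886 and 2.39 ± 0.843 CPM, and the pseudokinase ZED1 (Jr4SG00146400), known in Arabidopsis for a part in immunity, at 1.13 ± 0.538, 16.6 ± 4.60 and 1.74 ± 0.436 CPM. Trehalose-phosphate phosphatase J (Jr2SG00094500), an ABC transporter (Jr6SG00029600), a KNAT3-like homeobox factor (Jr4DG00219600), an NAM family factor (Jr3DG00080000) and Jr4DG00171100, annotated only by a folate-related process, had log2 changes of 3.06, 3.64, 3.21, 2.90 and 3.76.

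Of the peaks of at least 2-fold, 5 were named for the highest levels at 17W. A GH3 family gene (Jr3DG00013500), of enzymes that conjugate auxin and other acids to amino acids, stood at 1465, 1370.1 and 1334 CPM at 15W, then 3546, 4053 and 3475 at 17W, then 1811, 1688 and 1809 at 19W. EXORDIUM (Jr4SG00046700), a secreted protein tied to growth in Arabidopsis, stood at 328, 526 and 404 CPM at 15W, then 2541, 2559.6 and 2204 at 17W, then 1027, 1071 and 1102 at 19W. In both, the 17W libraries were the 3 highest, with log2 changes of 1.24 ± 0.153 (SE) (edgeR adjusted p = 1.91e-06) and 1.86 ± 0.207 (SE) (edgeR adjusted p = 1.09e-06). The CCCH zinc finger 29 genes Jr1SG00183000 and Jr1DG00299600 stood at 454 ± 53.1, 1724 ± 114 and 607 ± 36.6 CPM and 391 ± 37.7, 1287 ± 79.3 and 406 ± 20.7 CPM, and a glycine rich protein (Jr3DG00058000) at 569 ± 19.3, 1217 ± 81.9 and 346 ± 20.8 CPM. Of 115 auxin genes, 30 were peaks and 21 troughs (26.1% and 18.3%, median log2 change -0.02). IAA29 (Jr4DG00217000), a repressor of auxin responses, was a trough at 3304 ± 40.9, 1566 ± 152 and 2134 ± 124 CPM, and its call was lost without 17W replicate 1 or 19W replicates 1 and 2 and with library sizes alone (log2 change -0.75 to -0.67).

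Jasmonate genes were higher at 17W where a call was made, with 1 exception. Of 28 tested, 12 were higher at 17W than at both neighbours and 1 lower than at both (median log2 change 0.92). Lipoxygenase 3 (Jr1DG00230200), which starts jasmonate synthesis in plastids, stood at 85.2, 112 and 92.9 CPM at 15W, then 555, 494 and 535 at 17W, then 205, 256 and 202 at 19W. The 17W libraries were the 3 highest, with a log2 change of 1.85 ± 0.235 (SE) (edgeR adjusted p = 5.36e-06). Of the other steps of synthesis, allene oxide synthase (Jr8SG00053200), allene oxide cyclase 4 (Jr2DG00053900), the reductases OPR3 (Jr2SG00143700) and OPR2-like (Jr2SG00011500), the lipoxygenases Jr1DG00180500 and Jr1SG00107500 and the conjugating enzyme JAR1 (Jr4DG00109700) were peaks, with log2 changes of 1.13, 1.45, 0.41, 2.56, 1.35, 1.18 and 0.36. The call of Jr8SG00053200 was lost without 15W replicates 2 and 3 or 17W replicate 3 (log2 change 0.92 to 1.17), and that of Jr4DG00109700 was lost without 19W replicates 2 and 3 (log2 change 0.34). Allene oxide cyclase 3 (Jr2SG00038000) was not a peak, at 61.1 ± 3.38, 137 ± 14.6 and 123 ± 16.2 CPM at 15W, 17W and 19W, but became a peak without 19W replicate 3 and with library sizes alone (log2 change 0.73 to 0.74).

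JAZ proteins, the repressors that jasmonate removes and whose genes it induces, had 3 peaks, JAZ1 (Jr2DG00197700) at 275 ± 20.3, 481 ± 4.87 and 324 ± 13.2 CPM, the plastid-annotated JAZ Jr2SG00140800 at 88.6 ± 13.9, 336 ± 22.9 and 150.3 ± 19.8 CPM and TIFY 6B-like Jr3DG00181300 at 65.0 ± 4.13, 147 ± 8.53 and 90.5 ± 4.55 CPM. The related TIFY 8 (Jr4SG00015200) was a peak too, at 9.61 ± 1.60, 16.5 ± 1.58 and 8.11 ± 2.18 CPM. The list's trough was another TIFY 6B-like gene, Jr3SG00057100, at 981 ± 79.9, 574 ± 19.2 and 701 ± 82.8 CPM, and its call was lost without 19W replicate 2 and with library sizes alone (log2 change -0.47). The receptor gene COI1 (Jr1DG00296400) was neither, at 84.4 ± 9.03, 64.5 ± 6.97 and 59.3 ± 4.66 CPM. The factor MYC2 (Jr1DG00080600), on which JAZ proteins act, was a peak at 72.7, 91.2 and 80.5 CPM at 15W, then 207, 196 and 192 at 17W, then 105, 92.9 and 101 at 19W. All 3 libraries of 17W lay above the other 6.

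WRKY factors were mostly higher at 17W where a call was made: of 59 tested, 24 were higher at 17W than at both neighbours and 3 lower than at both (median log2 change 0.51). Peaks made up 40.7% of the list, against 18.0% of all genes tested. WRKY70 (Jr5SG00175800), a regulator of defence and senescence in Arabidopsis, stood at 97.7, 112 and 107 CPM at 15W, then 357, 377 and 340.3 at 17W, then 132, 147 and 172 at 19W. The groups did not overlap, and the log2 change was 1.51 ± 0.253 (SE) (edgeR adjusted p = 9.84e-05). The WRKY gene Jr2DG00019000 was a trough, at 208 ± 11.3, 120.0 ± 6.47 and 215 ± 7.24 CPM in stage order. The list's summed level was 2168, 2271 and 2191 CPM at 15W, then 4569.6, 4564 and 4444 at 17W, then 3800.4, 3878 and 3807 at 19W, so that 19W also lay above 15W.

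NAC factors, many of which act in ageing and stress, showed 28 peaks and 7 troughs among 79 tested, with a median log2 change of 0.47. The members with the most reads were NAC 21 (Jr6DG00175900), a trough at 2195 ± 117, 1164 ± 132 and 1708 ± 29.2 CPM, and NAC 35 (Jr3DG00093600), a peak at 1639.8 ± 45.3, 1924 ± 152 and 1354 ± 111 CPM, whose call was lost without 15W replicates 1, 2 and 3 or 17W replicates 2 and 3 and with upper-quartile factors (log2 change 0.30 to 0.39). Of 97 bHLH factors, 21 were peaks and 7 troughs (21.6% and 7.22%, median log2 change 0.06). The factor bHLH145 (Jr4DG00170600) stood at 51.0, 63.1 and 63.5 CPM at 15W, then 463, 516 and 423 at 17W, then 159, 119 and 132 at 19W. The 17W libraries stood well above the others, with a log2 change of 2.38 ± 0.104 (SE) (edgeR adjusted p = 2.63e-13). Of 109 homeobox factors, 28 were peaks and 12 troughs (25.7% and 11.0%, median log2 change 0.12). The called members with the most reads were nonetheless troughs, ATHB-6 (Jr2DG00132600) at 967 ± 71.8, 211 ± 25.8 and 291 ± 19.9 CPM and ATHB-12-like (Jr3SG00047400) at 348 ± 31.6, 188 ± 18.5 and 435 ± 49.1 CPM. Both are HD-Zip factors known from Arabidopsis in abscisic acid responses.

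Receptor-like kinases, the receptors of the cell surface, were called more often as peaks than as troughs. Of 493 receptor-like kinases, 132 were higher at 17W than at both neighbours and 38 lower than at both (median log2 change 0.28), peaks being 26.8% of the list. A kinase annotated At5g24010 (Jr1DG00067000) was a peak at 332 ± 40.7, 627 ± 37.6 and 474 ± 9.15 CPM, and an LRR kinase (Jr6DG00143200) a trough at 711 ± 47.6, 272 ± 19.6 and 791 ± 98.6 CPM. Of 87 NBS-LRR resistance proteins, receptors inside the cell, 22 were peaks and 13 troughs (25.3% and 14.9%, median log2 change 0.16). An RPP13-like gene (Jr4SG00138800) was a peak at 14.6 ± 2.44, 82.8 ± 3.91 and 58.2 ± 1.90 CPM, and an RGA4-like gene (Jr7SG00052200) a trough at 42.3 ± 1.45, 32.0 ± 2.36 and 41.5 ± 6.14 CPM. The call of the former was lost without 17W replicate 3 or 19W replicate 1 (log2 change 1.47 to 1.49), and that of the latter was lost without 17W replicate 2 or 19W replicate 3 and with library sizes alone (log2 change -0.33 to -0.31). Of 26 calmodulin-related proteins, a list drawn up after values had been seen, 6 were higher at 17W than at both neighbours and 1 lower than at both (median log2 change 0.58). The CML35 genes Jr5SG00035000 and Jr5DG00040500 were peaks at 233 ± 2.87, 598 ± 46.2 and 360.2 ± 24.0 CPM and 56.7 ± 4.61, 172 ± 12.4 and 22.9 ± 0.631 CPM.

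Hormone lists other than jasmonate were mixed. Of 48 abscisic acid genes, 5 were peaks and 9 troughs (10.4% and 18.75%, median log2 change 0.04), against 18.0% and 19.1% of all genes tested. The count of peaks became 9 (with library sizes alone). The ABI5-like factors Jr5SG00008200 and Jr3SG00171200, which carry abscisic acid signals in seeds, were troughs: Jr5SG00008200 stood at 259, 224 and 230.3 CPM at 15W, then 24.3, 27.9 and 28.6 at 17W, then 145, 133 and 139 at 19W, with separate groups and a log2 change of -2.76 ± 0.0760 (SE) (edgeR adjusted p = 9.26e-19), and Jr3SG00171200 at 287 ± 13.4, 95.0 ± 4.29 and 170.0 ± 16.6 CPM. Of 32 gibberellin genes, 5 were peaks and 9 troughs (15.6% and 28.1%, median log2 change -0.24). Gibberellin 2-beta-dioxygenase 8-like (Jr6DG00184800), which inactivates the hormone, and ent-kaurenoic acid oxidase (Jr7DG00019600), which helps to make it, were both troughs, at 673 ± 22.0, 133 ± 11.5 and 446 ± 19.8 CPM and 976 ± 43.7, 637 ± 30.7 and 814 ± 98.9 CPM. Of 39 ethylene genes, 8 were peaks and 9 troughs (20.5% and 23.1%, median log2 change 0.21), shares near those of all genes tested. With at least 2-fold in both, 1 was a peak and 5 were troughs, a larger share of troughs than the 4.98% of all genes tested. An ACC oxidase (Jr2SG00187000), the last step of ethylene synthesis, was a trough at 1244 ± 48.6, 451 ± 37.5 and 856 ± 34.5 CPM, and ethylene response factor 1 (Jr4DG00122900) a peak at 678 ± 85.9, 1409 ± 79.7 and 896 ± 35.0 CPM. Of 162 wall loosening and pectin genes, 27 were peaks and 29 troughs (16.7% and 17.9%, median log2 change -0.02), again near the shares of all genes tested. With at least 2-fold in both, 11 were peaks and 21 troughs, larger shares than the 4.74% and 4.98% of all genes tested. Pectinesterase-2 (Jr2DG00116300), which de-esterifies pectin, was a peak at 174 ± 21.5, 647 ± 49.8 and 104 ± 9.84 CPM, and XTH16 (Jr1DG00129000), which rejoins xyloglucan chains, a trough at 1580.0 ± 197, 1314 ± 64.8 and 2044 ± 163 CPM, whose groups overlapped and whose call was lost without 15W replicates 2 and 3, 17W replicates 1 and 3, 19W replicates 2 and 3 or 9W replicate 2 and with RLE factors (log2 change -0.46 to -0.39).

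Some genes that deviated by 2-fold or more lay side by side. With runs of at least 3 neighbouring tested genes counted, there were 13 runs of peaks, the longest of 4 genes, and 19 runs of troughs. The longest run of troughs held 8 genes annotated as small heat shock proteins of class I or their domain, on chromosome 7D from 7754370 to 7801327. In it Jr7DG00080200 stood at 243 ± 58.0, 43.1 ± 7.19 and 125 ± 19.2 CPM at 15W, 17W and 19W and Jr7DG00079700 at 111 ± 55.0, 6.32 ± 1.55 and 79.6 ± 11.1 CPM, while Jr7DG00079600 had 0 reads at 17W, which is at least 3.76-fold lower than at 15W and at least 11.0-fold lower than at 19W against a floor of 3 reads per library. The 3 alcohol dehydrogenase genes from Jr8DG00019400 to Jr8DG00019600 and Peroxidase 43 (Jr8DG00019800) formed a run on chromosome 8D from 2368046 to 2424529. Of the peak runs, 4 NAC genes lay on chromosome 3S from 5923228 to 5945835, among them Jr3SG00044200 at 208 ± 26.3, 1001 ± 26.6 and 378 ± 35.9 CPM and Jr3SG00044100 at 118 ± 9.10, 608 ± 16.1 and 266 ± 32.3 CPM. A further 4 genes for cysteine-rich receptor-like kinases lay on chromosome 5D from 7614224 to 7679441, among them Jr5DG00077600 at 57.0 ± 4.95, 242 ± 40.7 and 90.9 ± 1.69 CPM. These are coordinates of the deposited table, whose build is not given in the sources used here. Reads of such near-identical copies may be divided among them in counting, so the values of single copies are uncertain. The 4 runs were picked out after their values had been seen.

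The stage 11W, set against 9W and 13W, gave a second window that shares no library with the first. Of its libraries 11W replicate 1 stood apart from the other 11W libraries, with chi-square values per degree of freedom of 21.7 and 28.1 against 3.55 to 8.68 within 15W, 17W and 19W. At 13W, replicate 3 had values of 10.4 and 13.4 against the other 13W libraries. At 11W, 4209 genes were peaks (19.4% of the genes tested) and 3645 were troughs (16.8%). Of the 17W peak genes, 671 (17.2%) were also peaks at 11W and 1005 (25.7%) were troughs there. Of the 17W trough genes, 965 (23.3%) were peaks at 11W and 621 (15.0%) were troughs there. Seen from 11W, 15.9% of its peak genes were peaks at 17W and 22.9% were troughs, and 27.6% of its trough genes were peaks at 17W and 17.0% were troughs. Without 11W replicate 1, 699 and 1010 of the 17W peaks and 919 and 579 of the 17W troughs were peaks and troughs at 11W. The difference between the deviations at 17W and 11W was itself called for 6399 genes (29.5%) in which 17W was the higher and 7348 (33.9%) in which it was the lower.

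**Figure D5:**
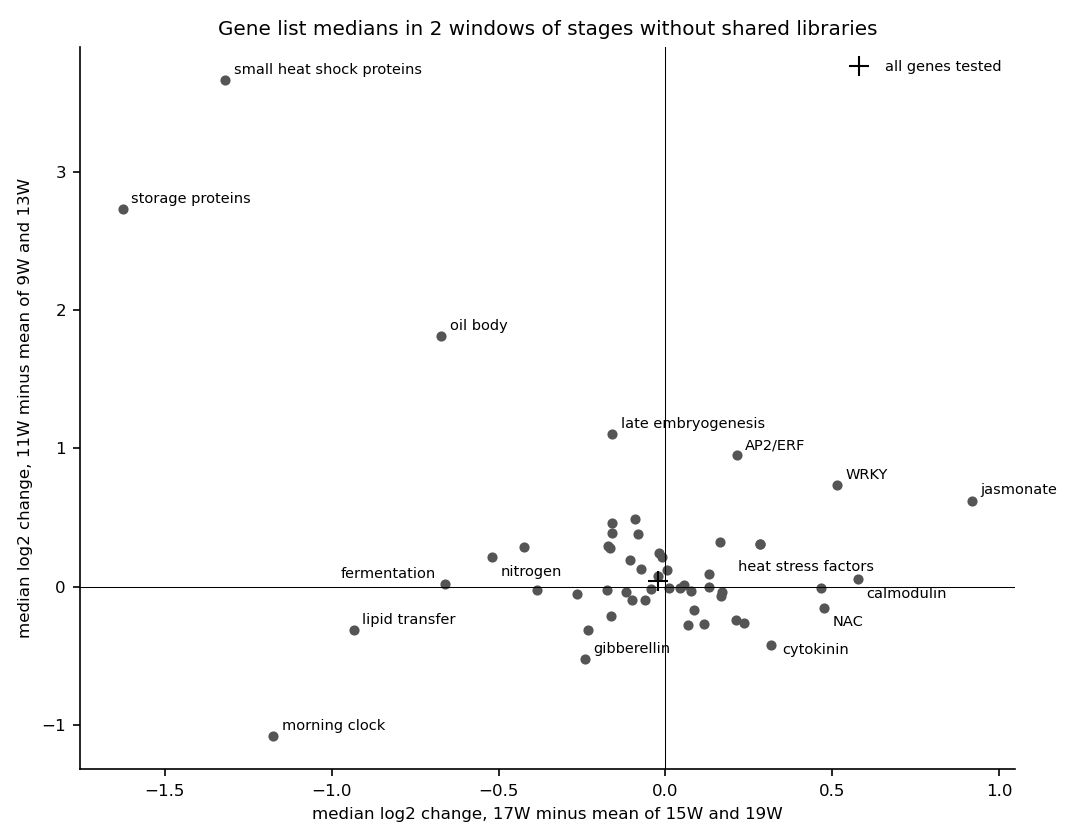
Median log2 change of each gene list at 17W against the mean of 15W and 19W, and at 11W against the mean of 9W and 13W, with 1 point per list and a plus sign for all genes tested. The morning clock list lies below 0 on both axes, the small heat shock and storage lists below 0 at 17W and above 0 at 11W, and the WRKY and jasmonate lists above 0 on both.

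The lists divided into those that deviated alike in both windows and those that did not. Of the morning clock genes, 11 were troughs at 11W and 10 were troughs in both windows (median log2 change at 11W -1.08). Of the 24 WRKY peaks at 17W, 16 were peaks at 11W, as were 25 of all 59 WRKY genes tested. For the small heat shock proteins the windows were opposite: 14 of the 16 troughs at 17W were peaks at 11W, where the list's median log2 change was 3.67. The list's summed level averaged 159, 1921 and 255 CPM at 9W, 11W and 13W. At 15W, 17W and 19W it averaged 1645, 571 and 1095 CPM, so 17W lay below its own neighbours but above 9W and 13W. Of all 29 tested, whatever their call at 17W, 20 were peaks at 11W. Small heat shock protein 17.3 Jr8DG00091100 differed between the windows by -10.71 on the log2 scale (edgeR adjusted p = 1.67e-11), and HSFA2 (Jr8DG00033600) by -7.84 (edgeR adjusted p = 8.44e-12). Pyruvate decarboxylase Jr5DG00200000, at 1377 ± 61.4 CPM at 11W against 42.8 ± 1.55 at 9W and 39.1 ± 5.80 at 13W, differed by -10.75 (edgeR adjusted p = 2.39e-24). These genes were already called with opposite signs in the windows, so the tests of their differences add no support. Of the 28 homeobox peaks at 17W, 17 were troughs at 11W, as were 37 of all 109 homeobox genes tested.

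Peak genes were somewhat longer than the rest: their median length was 1628.5 bases, against 1482 for trough genes and 1440 for all genes tested. In 4 length classes of nearly equal size, from short to long, 12.8%, 16.6%, 19.7% and 23.0% of genes were peaks and 17.7%, 18.9%, 20.6% and 19.1% were troughs. Longer genes collect more reads, and the part of length in these shares was not tested. At the edge of the rule, the peak Jr4SG00082900 stood at 34.0 ± 2.84, 47.4 ± 0.992 and 40.6 ± 2.09 CPM at 15W, 17W and 19W, and SEC6 (Jr8DG00007700), just outside, at 38.6 ± 4.06, 70.5 ± 4.77 and 60.4 ± 8.43 CPM. The trough Jr1DG00048000, a glucose-6-phosphate 1-epimerase, stood at 5.70 ± 0.971, 3.99 ± 0.501 and 11.8 ± 1.64 CPM, and ASIL2 (Jr2SG00169600), just outside, at 38.4 ± 1.03, 28.4 ± 0.454 and 32.5 ± 1.02 CPM.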

How the data were processed

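Pellicle RNA of 21 libraries was measured by paired-end, stranded mRNA sequencing of poly(A) RNA freed of rRNA, per the labels' protocols. That text speaks of 16 libraries, and all 21 samples were used. Per the submitters' processing notes, the tools used include FastQC, HISAT2, Cufflinks and DESeq2. Counter, genome build and strand setting were not given in the sources used here. Near-identical, overlapping and antisense genes may therefore share reads. Per the file headers, the deposited values are read counts of each gene in each library, with no normalization. The same table holds the authors' FPKM values, which were not used, and the deposited gene length in bases. Product names come from the table's NR description (16811 genes), else Swiss-Prot (6785), and 7829 genes have none. None of the NR accessions matched the reference gene table, so no sequence is printed.

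Counts were fitted in R 4.3.3 with edgeR 4.0.16 (limma 3.58.1). The filter filterByExpr by stage at a minimum count of 10 left 21707 genes, and 5183 had no read. After TMM scaling, 1 robust quasi-likelihood fit took all 21 libraries, each stage having its own coefficient (coefficient of variation 0.102). The contrasts were 17W against 15W, against 19W and against their mean, 11W likewise against 9W and 13W, and the difference between both deviations. Tests are 2-sided, with Benjamini-Hochberg adjustment across the genes tested and 0.05 as the limit. Replicate numbers did not pair the libraries: over 63 pairs of same-numbered libraries the correlation of deviations ran from -0.123 to 0.0833, none over 0.1. Libraries of a stage differed by more than sampling noise (chi-square per degree of freedom 3.13 to 28.1), and none was merged. In data simulated for the 17W contrast over 21105 genes, 21 of 50 genes changed 1.5-fold, 41 of 50 changed 2-fold, 48 of 50 changed 4-fold and 36 of 50 changed 0.5-fold were recovered as peaks or troughs. All other genes were held level over the stages. With so few changes the adjusted p limit was stricter than in the real data, so these rates do not carry over. Library totals count reads, not molecules, so floors cover counting error only.

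The members and the lists were chosen with earlier results of these data known. Lists are 50 sets of product names beside the seed coat markers. Their patterns were corrected by name at first, and a second time (TIFY, AP2 and resistance names) after counts had been seen. The fermentation, small heat shock and calmodulin lists and the choice of lists described member by member were made after values had been seen, and no list has a test. Genes were named by a rule: the 10 peaks and 10 troughs with the largest fold among named genes that reach 10 CPM in the higher stage and whose libraries do not overlap, the 5 of each with the most reads among those 2-fold in both, and the 2 called members with the most reads of each list described. Other members of the clock, jasmonate, storage, oil body, late embryogenesis and seed coat lists, and the genes of runs, were named after their values were seen. Alternatives were other scalings, filters and fold limits, DESeq2 1.42.0, a fit of 9 libraries, a replicate block and leaving out each of 18 libraries in turn.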

Additional observations from a re-analysis of the deposited data

Results flagged for a closer look

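The genes below deviated at 17W and at 11W in opposite directions: each was a peak in one window and a trough in the other. The difference between the deviations had an edgeR adjusted p under 0.05 in each case. Since the genes were chosen by calls of opposite sign, that test adds no support. Values are the log2 deviation at 17W minus that at 11W.

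Lower at 17W and higher at 11W were 4 of the 23 fermentation genes and 3 of the 88 sucrose and starch enzymes. Over all 21707 genes tested, 965 were so, and the share of the sucrose and starch list was no larger. Of the genes named in the text, pyruvate decarboxylase Jr5DG00200000 had -10.75, alcohol dehydrogenase Jr8DG00019400 had -6.88, glyceraldehyde 3-phosphate dehydrogenase Jr3SG00113600 had -3.58 and sucrose synthase 1 (Jr4DG00122100) had -3.05. Among genes of the heat response, small heat shock proteins Jr8DG00091100, Jr8DG00091200 and Jr7DG00080500 had -10.71, -4.99 and -5.05, HSFA2 (Jr8DG00033600) had -7.84 and the dnaJ homolog Jr7DG00042300 had -1.28. Genes of the seed and its lipids had -4.49 (vicilin-like Jr1DG00211500), -3.37 (oleosin Jr2DG00039300), -2.78 and -1.64 (late embryogenesis genes Jr4SG00137400 and Jr4SG00167600), -1.60 and -3.87 (desaturases Jr1DG00212000 and Jr7DG00071700) and -1.95 (lipid-transfer protein Jr3DG00097600). Rubisco activase (Jr5SG00162700) had -5.40, glutamate synthase (Jr3SG00013200) -1.73, the ABI5-like factor Jr3SG00171200 -1.77 and TIFY 6B-like Jr3SG00057100 -1.69. Among the troughs of largest fold, the cysteine desulfurase Jr2DG00113000 had -14.48, Jr8DG00143200 -10.25, early nodulin-93 (Jr2SG00172800) -9.20, Jr4SG00073200 -8.95, the kelch repeat gene Jr2DG00046800 -8.67 and Jr4DG00127000 -7.41.

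Higher at 17W and lower at 11W were the KNAT3-like factor Jr4DG00219600 with 6.60, pectinesterase-2 (Jr2DG00116300) with 3.60, CML35 (Jr5DG00040500) with 3.36, cinnamyl alcohol dehydrogenase 1 (Jr3DG00011500) with 3.09, the glycine rich protein Jr3DG00058000 with 2.40, SWEET1 (Jr8DG00020200) with 1.62 and histone H1 Jr4DG00061300 with 1.61.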

How the results depend on the processing

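Peaks numbered 2186 with at least 1.5-fold in both contrasts and 1029 with 2-fold, and troughs 2045 and 1081. No other setting moved a count for all genes by over 1.5 times, and no peak became a trough or the reverse in any. DESeq2 gave 3978 peaks and 4094 troughs, no filter 3958 and 3886, and library sizes alone 4514 and 3399, of which 3908 and 3399 were those of the TMM scaling. Replicate numbers do not pair the libraries; with a replicate block there were 3905 peaks and 4122 troughs, 3853 and 4077 of them shared with the fit without it. Leaving out 1 of 18 libraries gave 3531 to 4273 peaks and 3533 to 4147 troughs, 5822 to 6840 genes higher and 5620 to 6550 lower at 17W than the mean of its neighbours, and 6114 to 6500 higher and 6917 to 7335 lower than at 11W by deviation. The fits of 9 libraries gave no value for that difference. The shared counts with 11W then ran from 597 to 699 and 926 to 1031 for 17W peaks and from 847 to 959 and 530 to 609 for 17W troughs. Of the named genes under these settings, 4777 results kept their direction and call, 110 lost the call, 21 gained one and 0 reversed. Late embryogenesis gene Jr4SG00137500 moved from a log2 change of -2.25 to -3.46 without 17W replicate 3, and its call was lost without 15W replicates 1, 2 and 3, 17W replicates 1 and 2 or 19W replicates 1, 2 and 3 and with DESeq2 or a replicate block (log2 change -2.27 to -1.83). With 3 libraries a stage, small changes may be missed, at a rate that the simulation cannot give. It recovered 21 of 50 changes of 1.5-fold, but far fewer genes changed in it than in the real data. The cause of lost calls was not tested.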

Other observations

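Lists not described above gave the following counts, to be read against 18.0% peaks and 19.1% troughs over all genes tested. Of 77 proteasome subunits, which break down tagged proteins, 18 were higher at 17W than at both neighbours and 8 lower than at both (median log2 change 0.09), and of 573 F-box proteins and E3 ubiquitin ligases, which tag them, 137 were higher at 17W than at both neighbours and 109 lower than at both (median log2 change 0.08). Of 330 pentatricopeptide repeat proteins, which process organelle RNA, 20 were higher at 17W than at both neighbours and 36 lower than at both (median log2 change -0.11); the troughs became 23 (without 19W replicate 3 and with library sizes alone). Of 45 shikimate pathway enzymes, 10 were higher at 17W than at both neighbours and 7 lower than at both (median log2 change 0.13). Of 60 laccases and class III peroxidases, which polymerise lignin, 8 were higher at 17W than at both neighbours and 8 lower than at both (median log2 change -0.01); the peaks became 3 (with a fit of 9 libraries) and 5 (without 17W replicate 1), according to the setting. Of 104 cellulose and secondary wall genes, 12 were higher at 17W than at both neighbours and 26 lower than at both (median log2 change -0.16). Of 21 aquaporins, the water channels, 1 was higher at 17W than at both neighbours and 4 lower than at both (median log2 change -0.08); the peaks became 0 (without 13W replicates 1 and 2, 15W replicates 2 and 3, 17W replicates 1 and 2, 19W replicates 1 and 3 or 9W replicates 1 and 3 and with a fit of 9 libraries).

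Of 136 MYB factors, 24 were higher at 17W than at both neighbours and 28 lower than at both (median log2 change 0.01), and of 71 AP2/ERF factors, 13 were higher at 17W than at both neighbours and 8 lower than at both (median log2 change 0.21). Of 52 cytokinin genes, 10 were higher at 17W than at both neighbours and 8 lower than at both (median log2 change 0.32). Of 55 senescence and autophagy genes, 14 were higher at 17W than at both neighbours and 7 lower than at both (median log2 change 0.07). Of 118 antioxidant enzymes, 19 were higher at 17W than at both neighbours and 29 lower than at both (median log2 change -0.12); the peaks became 12 (without 17W replicate 2). Of 37 glutathione transferases, 9 were higher at 17W than at both neighbours and 9 lower than at both (median log2 change -0.27), and of 96 pathogenesis-related proteins, 15 were higher at 17W than at both neighbours and 11 lower than at both (median log2 change 0.00). Of 45 trehalose and raffinose family enzymes, 6 were higher at 17W than at both neighbours and 7 lower than at both (median log2 change 0.17).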
